A study of Mus musculus with 12 samples.

Results

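The genes described here are 10 that mark macrophages and dendritic cells: Flt3, Itgax, Cx3cr1, Csf1r, Adgre1, C1qa, Cd68, Lyz2, Mrc1 and Cd163. They were chosen by their symbols, with earlier results of these data known. All 10 are among the 45808 genes of the deposited table, and all 10 were among the 15025 tested. Distal ileum of inbred BALB/c mice was sequenced in 6 libraries of control animals given phosphate-buffered saline (PBS) and 6 of animals treated with Porphyromonas gingivalis, an oral bacterium associated with periodontitis. By its title, the series asks how this bacterium is linked to inflammation of the gut. The sources used here give no age, sex, route, dose or time and do not say that each library is a separate mouse. The p-values therefore measure the spread between these libraries, which may be technical. Between every pair of libraries this spread exceeded counting error, with a chi-square per degree of freedom of at least 7.09. That value does not tell separate mice from separate samples of the same mouse. Within each group, replicates carry the number (1 to 6) of their sample title.

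Macrophages of the gut wall are replenished largely from blood monocytes and take up dying cells and microbes without strong inflammation, and separate populations sit in the mucosa and in the muscle layer. Dendritic cells of the mucosa and of the lymphoid follicles carry antigen to T cells. The growth factor receptor CSF1R keeps macrophages alive, and FLT3 does the same for dendritic cells. The tissue is whole ileum, so for every gene fewer cells of a type and less RNA per cell cannot be told apart.

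The recovered depth was 6553306 to 10378841 reads per library. PBS replicate 6 and P. gingivalis replicates 1 and 5 stood apart from the other 9 libraries. In these 3 libraries Fabp6, the ileal bile acid binding protein, was at 2.52 to 16.002 normalized counts against 11246 to 69383 in the others. Fabp1, whose fatty acid carrier is typical of more proximal small bowel, was at 16938 to 26745 in them and 18.3 to 1821 in the others. The difference of each member, and the counts of each list of related genes, are therefore also given without them, which leaves 5 PBS and 4 P. gingivalis libraries. The ranges over single omissions are those of the difference with each of the 12 libraries left out in turn. Every member had at least 21 reads in every library, so none of these markers was absent from the tissue. Of the neutrophil markers, S100a8 and Elane had no read in any of the 12 libraries (the limit that 0 reads allow is 3 per library). Csf3r and Retnlg, of the same list, did have reads, with means of 17.7 and 15.7 in PBS and 18.9 and 17.3 after P. gingivalis.

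Lyz2 is the lysozyme gene of macrophages and other myeloid cells, and Lyz1, the lysozyme gene of Paneth cells, lies beside it on chromosome 10. Their coding sequences on GRCm38 were both 444 bases long (from the GENCODE transcripts, without the stop codon) and differed at 22 positions, an identity of 95.05%. The first 240 coding bases, which hold 17 of the 22 differences, are shown because reads from this stretch have to be told apart between the genes. Capitals mark the positions that differ.

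Lyz2: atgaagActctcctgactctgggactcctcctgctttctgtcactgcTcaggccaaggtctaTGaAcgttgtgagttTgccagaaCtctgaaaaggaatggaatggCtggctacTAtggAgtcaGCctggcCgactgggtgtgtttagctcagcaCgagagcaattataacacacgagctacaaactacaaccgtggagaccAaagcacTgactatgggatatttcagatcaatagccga
Lyz1: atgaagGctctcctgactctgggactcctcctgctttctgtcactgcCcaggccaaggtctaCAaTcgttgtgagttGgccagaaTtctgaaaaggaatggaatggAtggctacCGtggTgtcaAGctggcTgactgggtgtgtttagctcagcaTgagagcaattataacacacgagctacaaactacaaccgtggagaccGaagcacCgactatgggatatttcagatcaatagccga

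Of all stretches of 50 bases in the Lyz2 transcript, 15.4% occur unchanged in the Lyz1 transcript. At 30 bases the share was 33.95% and at 75 bases 5.96%. The sources used here give neither the read length nor the handling of reads that match both genes, so the Lyz2 values are uncertain. Because Lyz1 stood at 15.5 to 76.8 times Lyz2 in each library, these shares do not bound that uncertainty.

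The 250 bases before the start of both genes are shown for the same pair, together with those of Mrc1, whose level moved with that of Lyz2 over the libraries. The sequences are from RefSeq on GRCm38.p6, printed in the direction of transcription. The windows of Lyz2 and Mrc1 reach into these genes as GENCODE places them (given below), so they are not wholly upstream by that annotation. Capitals mark GAGGAA, the box bound by the myeloid factor PU.1, on either strand (TTCCTC on the other).

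Lyz2, chr10:117282273-117282522, minus strand: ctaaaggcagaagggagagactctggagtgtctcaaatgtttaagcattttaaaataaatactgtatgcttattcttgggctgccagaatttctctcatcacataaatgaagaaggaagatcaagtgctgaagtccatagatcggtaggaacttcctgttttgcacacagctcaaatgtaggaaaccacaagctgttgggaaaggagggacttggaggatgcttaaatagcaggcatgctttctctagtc
Lyz1, chr10:117292869-117293118, minus strand: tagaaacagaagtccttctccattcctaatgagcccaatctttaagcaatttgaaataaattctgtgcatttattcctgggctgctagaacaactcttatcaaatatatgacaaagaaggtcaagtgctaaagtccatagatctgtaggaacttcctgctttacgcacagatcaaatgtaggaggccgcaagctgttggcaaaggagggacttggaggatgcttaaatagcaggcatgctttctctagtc
Mrc1, chr2:14229164-14229413, plus strand: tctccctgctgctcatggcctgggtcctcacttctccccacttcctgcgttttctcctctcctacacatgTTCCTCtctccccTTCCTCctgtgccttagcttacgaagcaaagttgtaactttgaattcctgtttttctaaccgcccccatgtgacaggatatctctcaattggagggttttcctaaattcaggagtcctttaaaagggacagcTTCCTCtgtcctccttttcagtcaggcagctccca

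The upstream windows of Lyz2 and Lyz1 had the same base in 79.4% of aligned positions, and neither held the box. That of Mrc1 held 3 copies. Of the 7 members with a window in the table, 2 held the box, Mrc1 and Cd68, against 23.3% of all 32851 windows of this length. A match of letters is a description of the sequence and not a binding site.

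No member differed between the groups past the test. Values were compared with limma on log2(normalized count + 1), where a normalized count is a gene's reads divided by the authors' size factor for the library. Of the 10 members, 0 had a limma adjusted p under 0.05, and 0% of the 15025 genes tested did. On the recovered reads edgeR and DESeq2 also called 0 members. Over all genes edgeR called 0 and DESeq2 33 (3 higher, 30 lower). At an unadjusted p under 0.05 stood 1 member with each of the 3 tools, Flt3. In limma 560 genes did so, 3.73% of all tested, and 1.57% did so with the higher mean after P. gingivalis. In 7 of 10 members the mean log2 difference, P. gingivalis minus PBS, was above 0, as in 48.9% of all genes. The median difference was 0.13 log2 units over the members and -0.0039 over all genes tested. In 0 of 10 members did the groups not overlap, against 0.166% of all genes. The 95% intervals of the 10 differences, not adjusted for their number, ran from 0.616-fold to 1.997-fold of the PBS level. Without P. gingivalis replicate 2 there were 3 members at an unadjusted p under 0.05 (Flt3, Itgax and Adgre1), where the share of all genes was 6.74%. Without P. gingivalis replicate 6 there were 2 (Flt3 and Mrc1), with a share of 8.34%. Without the 3 libraries low in Fabp6 there were 0, with a share of 2.97%.

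**Figure D1:**
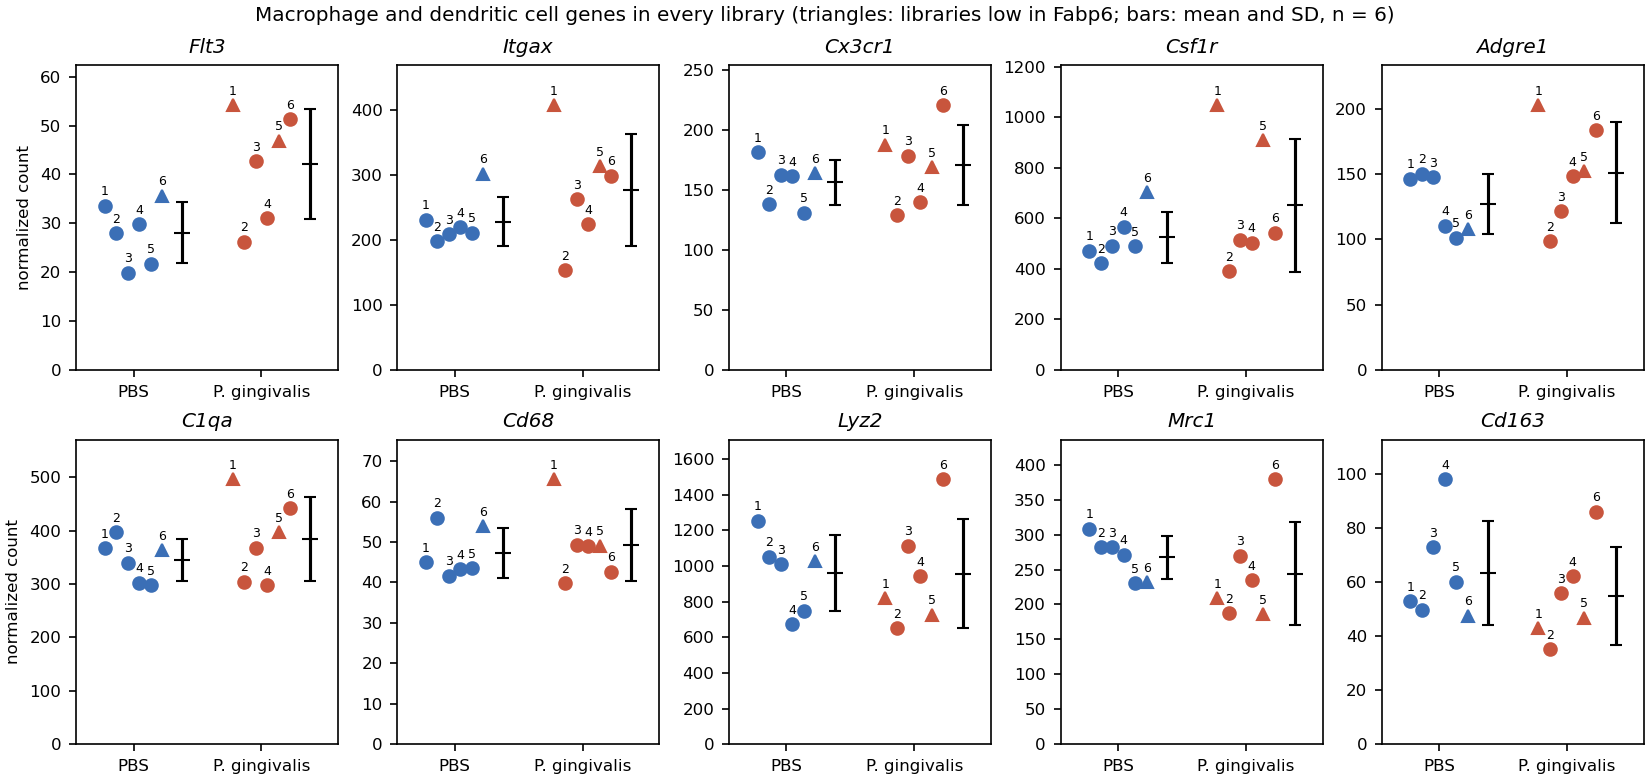
Normalized count of each gene (vertical axis, from 0) in each PBS library (blue) and P. gingivalis library (red), numbered by replicate. Black bars give the mean and SD of 6 libraries and triangles mark the 3 libraries low in Fabp6. In the Csf1r and Itgax panels these 3 lie above the other 9 libraries, and in every panel the groups overlap.

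Flt3 encodes the receptor through which FLT3 ligand sustains dendritic cells. Its normalized counts ran from 19.9 to 35.6 in PBS (median 28.9) and from 26.2 to 54.2 after P. gingivalis (median 44.8). In P. gingivalis replicates 1, 3, 5 and 6 it lay above every PBS library, while replicates 2 and 4 lay within the PBS range. The means were 28.1 ± 6.29 and 42.1 ± 11.2 (SD, n = 6 each), a log2 difference of 0.55 (SE 0.21, limma adjusted p = 0.992). This was the largest mean difference among the 10 genes. Between 21 and 59 reads stood behind each value, so counting error alone gives a spread of 16.9% against the 25.9% seen within groups. Without the 3 libraries low in Fabp6 the difference was 0.47 (SE 0.24), with a 95% interval from -0.05 to 0.99.

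Itgax encodes CD11c, an integrin chain of dendritic cells and of many gut macrophages. It ran from 198.2 to 302.3 in PBS (median 215.8) and from 153.7 to 408.4 after P. gingivalis (median 281.1). The highest PBS library was replicate 6 and the 2 highest P. gingivalis libraries were replicates 1 and 5, at 408.4 and 314.3. The means were 228.8 ± 37.7 and 277.2 ± 86.4, with a log2 difference of 0.23 (SE 0.19, limma adjusted p = 0.992). Without those 3 libraries it was 0.09 (SE 0.17), and over single omissions it ran from 0.10 (without P. gingivalis replicate 1) to 0.38 (without P. gingivalis replicate 2).

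Csf1r encodes the receptor for CSF1 and IL34. It ran from 421.3 to 703.95 in PBS (median 491.1) and from 390.5 to 1049 after P. gingivalis (median 529.9). The 3 libraries low in Fabp6 were again the highest of all, at 703.95 in PBS replicate 6 and 1049 and 909.8 in P. gingivalis replicates 1 and 5, while the other 9 lay between 390.5 and 566.4. The means were 524.4 ± 99.5 and 652.0 ± 263, a difference of 0.24 (SE 0.22, limma adjusted p = 0.992). Without those 3 libraries the means were 488.5 ± 52.1 (n = 5) and 488.4 ± 67.4 (n = 4) and the difference was -0.0049 (SE 0.12), so its direction rested on them. Over single omissions it ran from 0.088 (without P. gingivalis replicate 1) to 0.37 (without P. gingivalis replicate 2), and was 0.13 without P. gingivalis replicate 5. In both Csf1r and Itgax these 3 libraries lay above the other 9, as in 6.46% of all genes tested. No member had all 3 below the other 9, as 4.93% of all genes did. The opposite-strand gene Hmgxb3 shares exon positions with Csf1r, and the sources used here do not say whether strand was used in counting, so the Csf1r values are uncertain to that degree. Hmgxb3 averaged 319.7 in PBS and 331.2 after P. gingivalis.

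Cx3cr1 encodes the receptor for CX3CL1 and marks macrophages of the lamina propria. It ran from 131.2 to 181.4 in PBS (median 162.2) and from 129.3 to 220.9 after P. gingivalis (median 173.9). P. gingivalis replicate 6 was its highest library and replicate 2 its lowest, so the P. gingivalis group enclosed the PBS range. The difference was 0.11 (SE 0.13, limma adjusted p = 0.992), and 0.09 (SE 0.17) without the 3 libraries low in Fabp6. Single omissions gave 0.034 (without P. gingivalis replicate 6) to 0.19 (without P. gingivalis replicate 2), with 0.064 without PBS replicate 5.

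Adgre1 encodes an adhesion receptor used to identify mouse macrophages. It ran from 101.1 to 150.5 in PBS (median 128.5) and from 98.5 to 202.9 after P. gingivalis (median 150.1). Replicates 1 and 6 of P. gingivalis, at 202.9 and 183.5, lay clearly above the PBS range, replicate 5 at 152.02 just above it, and replicate 2 below it. The difference was 0.22 (SE 0.17, limma adjusted p = 0.992), and 0.05 (SE 0.19) without the 3 libraries low in Fabp6. Single omissions gave 0.13 (without P. gingivalis replicate 1) to 0.34 (without P. gingivalis replicate 2).

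C1qa encodes a chain of complement C1q, which macrophages make in tissues. It ran from 297.6 to 397.4 in PBS (median 351.9) and from 297.7 to 496.6 after P. gingivalis (median 382.99). The lowest values of the groups were alike, and P. gingivalis replicates 1 and 6 were the highest at 496.6 and 442.8. The difference was 0.14 (SE 0.13, limma adjusted p = 0.992). It shrank to 0.041 (SE 0.14) without the 3 libraries low in Fabp6. Single omissions gave 0.062 (without P. gingivalis replicate 1) to 0.21 (without P. gingivalis replicate 4). C1qb and C1qc, the other chains, added here for their partnership with C1qa, differed by 0.09 (SE 0.13) and 0.03 (SE 0.14), and by 0.032 (SE 0.14) and 0.0059 (SE 0.16) without those 3 libraries.

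Cd68 encodes a lysosomal membrane protein of macrophages. It ran from 41.7 to 56.03 in PBS (median 44.2) and from 39.8 to 65.5 after P. gingivalis (median 49.1). Apart from P. gingivalis replicate 1, at 65.5, all libraries lay between 39.8 and 56.03. The difference was 0.05 (SE 0.14, limma adjusted p = 0.994), and -0.02 (SE 0.15) without the 3 libraries low in Fabp6. Single omissions gave -0.034 (without P. gingivalis replicate 1) to 0.11 (without P. gingivalis replicate 2), on both sides of 0. The spread within groups of 15.9% was close to the 14.4% that counting 41 to 63 reads gives, so depth limits what can be seen of this gene.

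Lyz2 ran from 673.1 to 1255 in PBS (median 1018) and from 652.6 to 1487 after P. gingivalis (median 881.96). PBS replicate 1 and P. gingivalis replicate 6 were its highest libraries. The means were 960.9 ± 214.0 and 957.2 ± 307, a difference of -0.03 (SE 0.20, limma adjusted p = 0.996). It was 0.12 (SE 0.24) without the 3 libraries low in Fabp6, and ran from -0.17 (without P. gingivalis replicate 6) to 0.068 (without P. gingivalis replicate 2) over single omissions, so it had no stable direction. Lyz1 was far higher, at 35689 ± 13969 and 36322 ± 14114. In the 3 libraries low in Fabp6, Lyz1 was at 52357 to 63214, above the 23022 to 34710 of the other 9. Lyz2 in the same 3 libraries was at 725.8 to 1026, within the 652.6 to 1487 of the other 9, so it did not follow Lyz1. The ratio of Lyz1 to Lyz2 was 61.6 to 76.8 there and 15.5 to 42.5 elsewhere.

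Mrc1 encodes the mannose receptor CD206, an endocytic receptor of resident macrophages that lymphatic endothelium also makes. It ran from 230.7 to 308.5 in PBS (median 276.7) and from 186.3 to 379.3 after P. gingivalis (median 221.8). P. gingivalis replicates 1, 2 and 5 lay below every PBS library and replicate 6 above every one. The means were 267.8 ± 30.7 and 244.3 ± 73.2, a difference of -0.17 (SE 0.16, limma adjusted p = 0.992). It shrank to -0.081 (SE 0.18) without the 3 libraries low in Fabp6, and to -0.10 without P. gingivalis replicate 5 or replicate 2. Without P. gingivalis replicate 6, its highest library, it was -0.31 (limma unadjusted p = 0.0200, adjusted p = 0.492).

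Cd163 encodes the scavenger receptor that takes up haptoglobin bound to haemoglobin and marks perivascular and other resident macrophages. It ran from 47.5 to 98.1 in PBS (median 56.5) and from 35.3 to 86.1 after P. gingivalis (median 51.4). P. gingivalis replicates 1, 2 and 5 again lay below every PBS library, and PBS replicate 4 and P. gingivalis replicate 6 were the highest. The means were 63.6 ± 19.2 and 54.9 ± 18.02, a difference of -0.22 (SE 0.22, limma adjusted p = 0.992). It was -0.18 (SE 0.26) without the 3 libraries low in Fabp6. Single omissions gave -0.36 (without P. gingivalis replicate 6) to -0.087 (without PBS replicate 4), with -0.11 without P. gingivalis replicate 2. Between 34 and 102 reads stood behind each value.

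**Figure D2:**
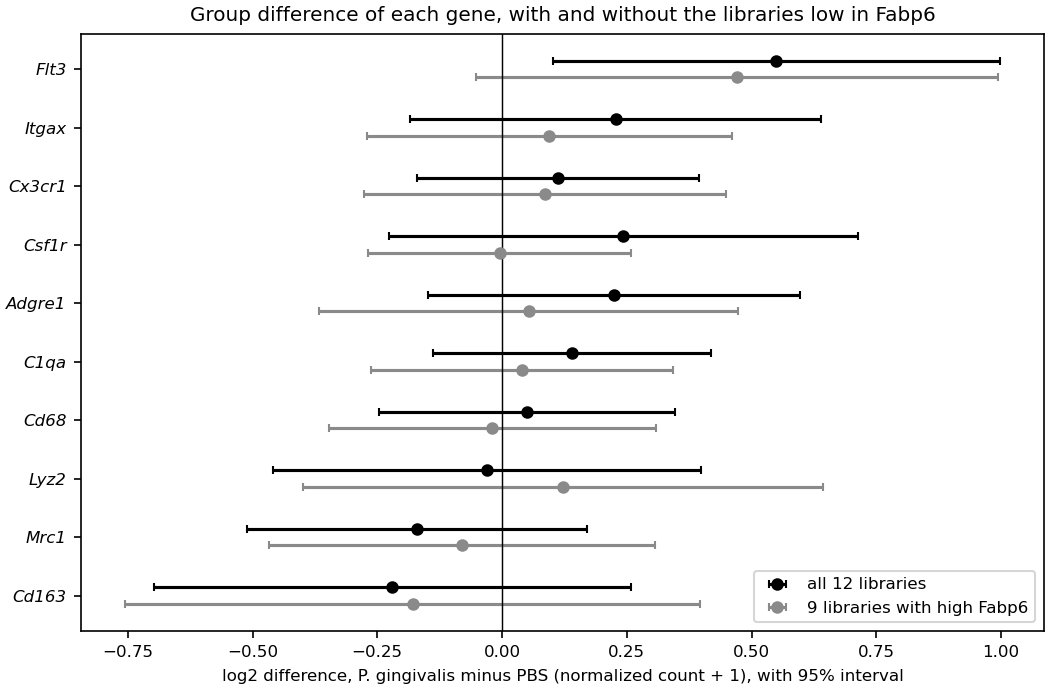
Log2 difference of each gene, P. gingivalis minus PBS, with its 95% interval (horizontal axis), over all 12 libraries (black) and over the 9 libraries with high Fabp6 (grey). Flt3 has the largest difference in both, 0.55 and 0.47, and the difference of Csf1r goes from 0.24 to near 0.

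Over all 12 libraries, but less so over the 9 with high Fabp6, Mrc1, Cd163 and Lyz2 took other paths than Csf1r and Itgax. The ratio of Mrc1 to Csf1r was 0.330, 0.1995 and 0.205 in PBS replicate 6 and P. gingivalis replicates 1 and 5 and 0.466 to 0.698 in the other 9 libraries. The ratio of Cd163 to Csf1r was 0.0675, 0.0409 and 0.0515 in the same 3 libraries and 0.0903 to 0.173 in the others. That of Lyz2 to Csf1r was 1.46, 0.781 and 0.798 in these 3 and 1.19 to 2.74 in the others, so PBS replicate 6 lay among them. Each such ratio compares a pair of genes within a library and does not say which of them changed.

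With the group means removed, Pearson's r over the 12 libraries was 0.89 between Csf1r and Itgax, 0.85 between Flt3 and Itgax, and 0.84 between Mrc1 and Lyz2. Between Csf1r and Mrc1 it was -0.31 and between Csf1r and Cd163 -0.07. Over the 9 libraries with high Fabp6 these last values were 0.56 and 0.93, so the 3 libraries set their size and sign. Between Csf1r and Lyz2 r was -0.17 over 12 and 0.25 over 9. Itgax had an r of 0.10 with Mrc1, 0.26 with Lyz2 and 0.09 with Cd163 over 12 libraries. Over 9 these were 0.87, 0.74 and 0.72. Cd68 was the member least like the rest over the 9 libraries with high Fabp6, with r from -0.15 to 0.33. These correlations are descriptions of libraries that share size factors, tissue makeup and, for Flt3, Cd68 and Cd163, few reads.

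**Figure D3:**
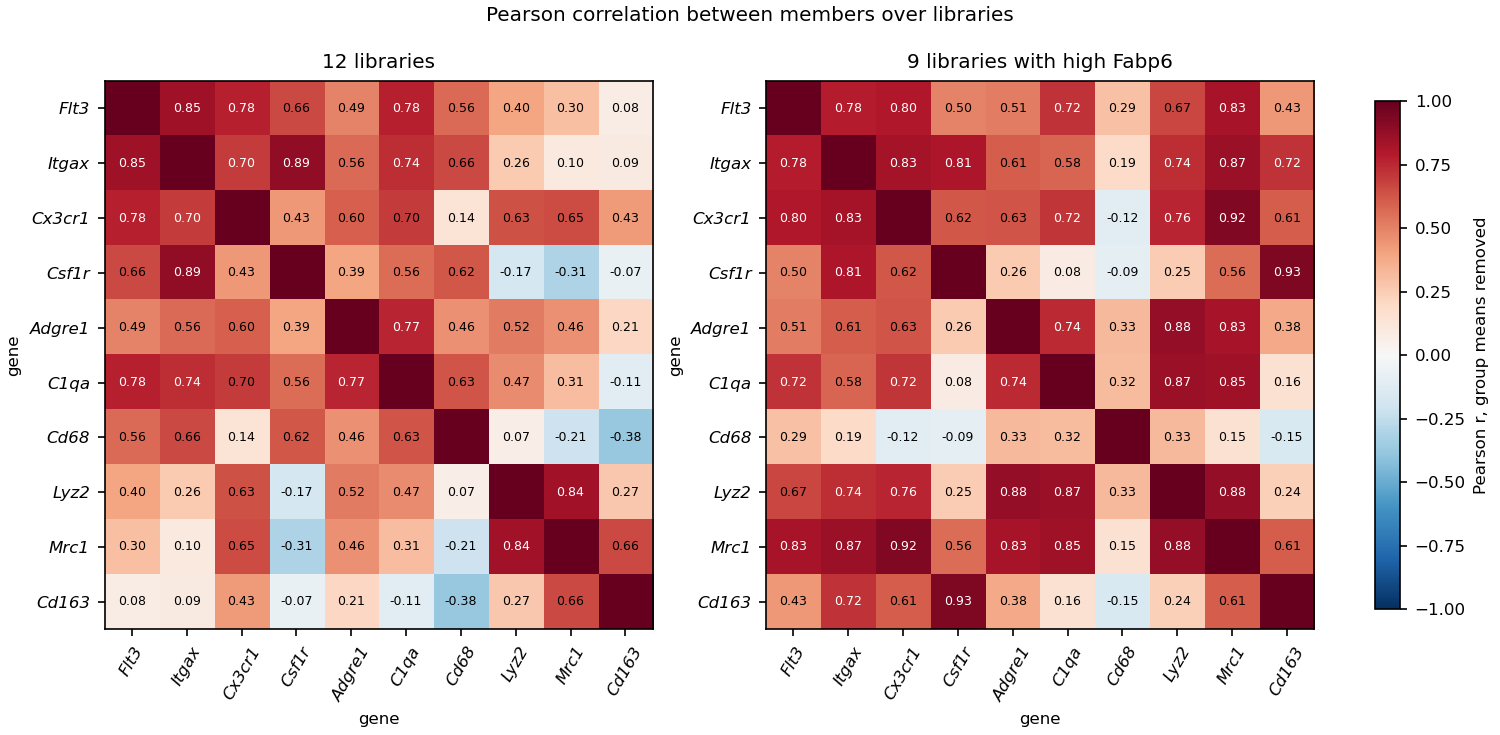
Pearson's r between each pair of genes over 12 libraries (left) and over the 9 with high Fabp6 (right), with group means removed. In the left panel Mrc1 and Cd163 are near 0 or below it with Csf1r, at -0.31 and -0.07, and in the right panel they are at 0.56 and 0.93.

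Single libraries shaped the ranges. P. gingivalis replicate 1 was the highest of all 12 for 6 members (Flt3, Itgax, Csf1r, Adgre1, C1qa and Cd68) and P. gingivalis replicate 6 for 3 (Cx3cr1, Lyz2 and Mrc1). P. gingivalis replicate 2 was the lowest for 7, all but Flt3, Mrc1 and C1qa. The mean of 5 epithelial genes (Epcam, Vil1, Cdh1, Krt8 and Krt20) was highest in P. gingivalis replicate 2, at 14.01 log2 units, and lowest in replicates 6 and 1, at 12.89 and 12.99, with 13.3 to 13.7 in the other 9. Pearson's r with this mean was below 0 for every member, over 12 libraries and over the 9 with high Fabp6. Over 12 it was -0.91 for Adgre1, -0.76 for C1qa, -0.74 for Cx3cr1 and -0.70 for Itgax, and weakest for Cd68 at -0.41. Over 9 it was -0.93 for Adgre1, -0.90 for Mrc1 and -0.81 for Lyz2, and weakest for Cd68 at -0.15. The summed level of these 5 genes was 64733 to 78417 in PBS and 46666 to 97772 after P. gingivalis, and its part in the results was not tested beyond a fit that holds this mean constant, in which 0 members were called. In that fit the difference of Adgre1 was 0.14 in place of 0.22 and that of Cx3cr1 0.064 in place of 0.11. That of C1qa was 0.090 in place of 0.14 and that of Flt3 0.49 in place of 0.55. Itgax, Csf1r and Cd68 stood at 0.15, 0.19 and 0.026 in place of 0.23, 0.24 and 0.05. Lyz2, Mrc1 and Cd163 moved further below 0, to -0.094, -0.22 and -0.27 from -0.03, -0.17 and -0.22.

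Markers of other tissue layers varied with several members. Over 12 libraries r with the smooth muscle and fat cell means was highest for Mrc1 and Cd163. All 6 smooth muscle genes and all 7 fat cell genes had lower means after P. gingivalis, none past the test by limma, with 4 and 7 at an unadjusted p under 0.05. The summed smooth muscle level was 9786 to 16457 in PBS and 6053 to 22162 after P. gingivalis, highest in P. gingivalis replicate 6, where Mrc1 was also highest. Over 12 libraries r with the smooth muscle mean was 0.85 for Mrc1, 0.70 for Cd163, 0.62 for Lyz2 and 0.54 for Adgre1. Its lowest value there was -0.21, for Csf1r. Over the 9 libraries with high Fabp6 it was 0.85 for Mrc1, 0.79 for Adgre1, 0.75 for Itgax, 0.73 for Flt3 and 0.63 for Cd163. It was lowest for Cd68, at 0.24. The summed fat cell level was 1549 to 6833 in PBS and 448.2 to 2299 after P. gingivalis, highest in PBS replicate 4, where Cd163 was also highest, and r with Cd163 was 0.72. Over 12 libraries r with the fat cell mean was also 0.64 for Mrc1, 0.47 for Lyz2 and 0.43 for Adgre1, and lowest for Cd68 at -0.27. Over the 9 libraries r with the fat cell mean was 0.71 for Cd163 and 0.77 for Adgre1, and lowest for Cd68 at 0.04. The fat cell markers Adipoq, Plin1, Lep, Cfd and Retn had no read in P. gingivalis replicates 1, 2 and 3. With the smooth muscle mean held constant, the differences of Mrc1 and Cd163 were 0.16 and 0.16 in place of -0.17 and -0.22, and with the fat cell mean 0.28 and 0.49, so both directions turned. All 10 members then had positive differences with smooth muscle held constant and 9 with fat held constant, none past the test. The share of all genes above 0 in these fits is not given, and the all-gene median was -0.0045 and -0.0032. At an unadjusted limma p under 0.05 stood 2 and 0 members, against 13.8% and 15.4% of all genes (3.73% in the main fit). The smooth muscle and fat cell means were both lower after P. gingivalis, so in these fits they and the treatment cannot be fully told apart.

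Of 6 mesothelial genes 5 were tested and all 5 had lower means, 4 at an unadjusted p under 0.05 and none past the test. Their summed level, 8808 to 12049 in PBS and 6432 to 13349 after P. gingivalis, was carried by Krt19, which gut epithelium also makes, while Upk3b stood at 30.9 to 119.96 and 11.3 to 28.7. All 6 lymphatic endothelial genes were tested, with a summed level of 600.8 to 846.1 in PBS and 543.3 to 1274 after P. gingivalis. Over 12 libraries r with their mean was 0.82 for Mrc1, 0.79 for Lyz2, 0.66 for Cx3cr1 and 0.66 for Cd163, and lowest for Cd68 at -0.08. Over the 9 with high Fabp6 r was 0.85 with Mrc1, 0.99 with Itgax and, at its lowest, 0.11 with Cd68. B cell markers, 10 of 10 with higher means, none past the test and 0 at an unadjusted p under 0.05, summed to 98.1 to 865.9 in PBS and 107.6 to 1010 after P. gingivalis. Of 10 T cell markers 5 were tested, all with higher means, none past the test and 2 at an unadjusted p under 0.05, and the 10 summed to 131.2 to 368.2 and 152.8 to 339.1. With the B cell mean held constant the difference of Flt3 was 0.49 (limma adjusted p = 0.991), that of Cx3cr1 0.072 and that of Lyz2 -0.16. All 6 Paneth cell genes were tested, 3 higher and 3 lower and none past the test, with summed levels of 55991 to 136190 and 55188 to 119425. Of 8 neutrophil genes 2 were tested, and the 8 summed to 27.0 to 39.8 and 19.0 to 71.8. Over the 9 libraries with high Fabp6 the higher means numbered 0 of 6 for smooth muscle, 0 of 7 for fat cell, 1 of 5 for mesothelial, 5 of 6 for lymphatic endothelial, 10 of 10 for B cell, 5 of 5 for T cell, 1 of 6 for Paneth cell, 0 of 2 for neutrophil and 3 of 5 for epithelial genes, none past the test. The B cell median was 1.58 there against 0.70 over all 12 libraries. The part of mesothelial, lymphatic, Paneth, neutrophil and T cell content in the members' values was not tested.

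**Figure D4:**
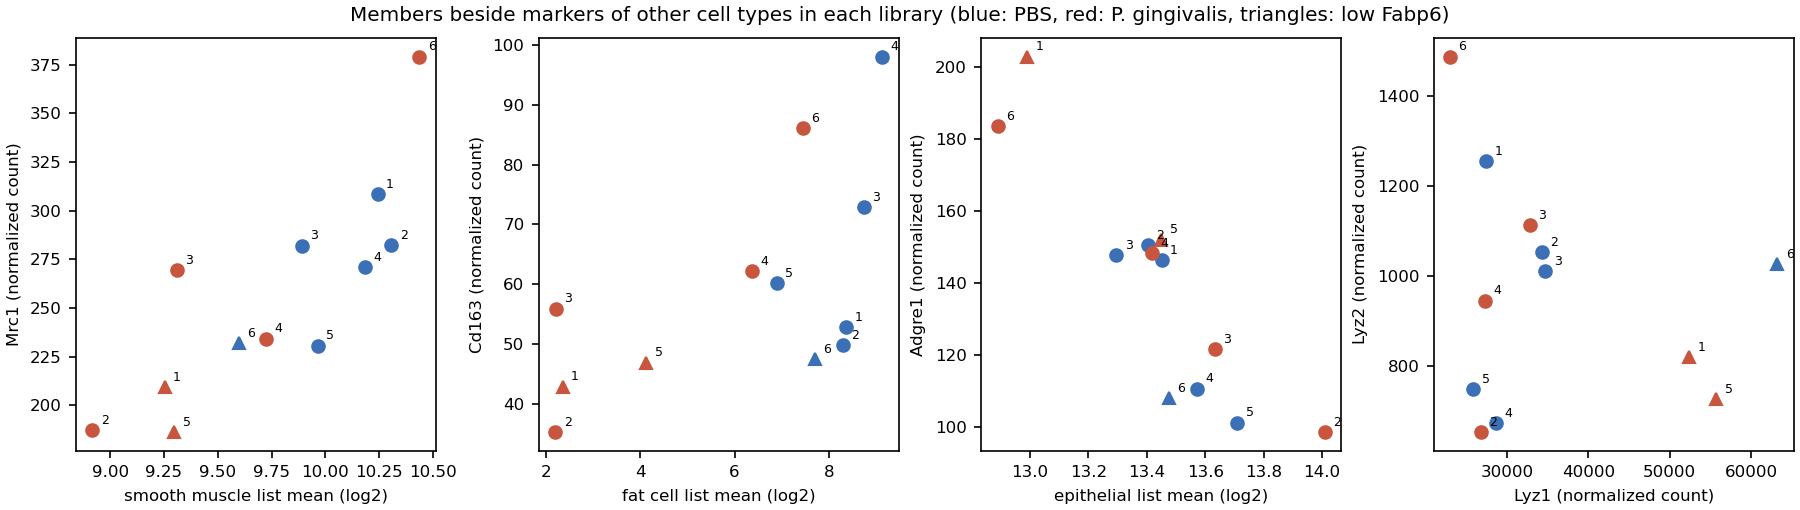
From left to right, Mrc1 against the smooth muscle mean, Cd163 against the fat cell mean, Adgre1 against the epithelial mean and Lyz2 against Lyz1, each point a library (blue PBS, red P. gingivalis, numbered by replicate, triangles low in Fabp6). Axes are normalized counts or mean log2(normalized count + 1) and do not start at 0. Mrc1 is highest where the smooth muscle mean is, in P. gingivalis replicate 6, and in the 3 libraries with the highest Lyz1, Lyz2 lies within the range of the other 9.

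Among ligands and recruiting factors 8 of 13 genes were tested, 7 with higher means and 1 with a lower one. None passed, and 1 had an unadjusted p under 0.05. Il34, a ligand of CSF1R, averaged 53.4 ± 14.9 and 75.3 ± 22.6, a difference of 0.48 (SE 0.21, limma adjusted p = 0.992). Its highest value was 117.2, in P. gingivalis replicate 1. Ccl5, a T cell and monocyte chemokine, differed by 0.95 (SE 0.61). The other ligands of the receptors above were added to those that the rule named. Csf1 differed by 0.02 (SE 0.13), Flt3l, the ligand of FLT3, by 0.04 (SE 0.18) and Cx3cl1 by 0.04 (SE 0.22). Over the 9 libraries with high Fabp6, 5 of 7 ligands tested had higher means, and Il34 differed by 0.39 (SE 0.17), Csf1 by -0.089 (SE 0.14), Flt3l by 0.15 (SE 0.19) and Cx3cl1 by 0.11 (SE 0.26).

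Of 24 other dendritic cell genes 22 were tested, 18 with higher and 4 with lower means, none past the test and 0 at an unadjusted p under 0.05, with a median difference of 0.14. Clec9a, a receptor for dead cells on cross-presenting dendritic cells, averaged 29.9 ± 13.6 and 54.8 ± 29.98, a difference of 0.74 (SE 0.39, limma adjusted p = 0.992). It was at 95.8 in P. gingivalis replicate 1 and 81.8 in replicate 6, against 15.9 to 55.1 in PBS. Itgae, the CD103 integrin chain of gut dendritic cells and intraepithelial lymphocytes, differed by 0.43 (SE 0.23). Without the 3 libraries low in Fabp6, 17 of 21 genes had higher means, with a median of 0.13, and Clec9a differed by 0.60 (SE 0.38) and Itgae by 0.26 (SE 0.21). The libraries left were uneven in B cell markers. These summed to 691.5 to 1010 in P. gingivalis replicates 3, 4 and 6 and 828.3 in PBS replicate 1. In the remaining PBS libraries the sums were 98.1 to 122.9, and in P. gingivalis replicate 2 the sum was 107.6. The part of B cell content in the dendritic cell counts was not tested.

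Of 28 other macrophage and monocyte genes 24 were tested, 19 with higher and 5 with lower means, none past the test and 0 at an unadjusted p under 0.05, with a median of 0.10. Timd4, a receptor for dying cells on long-lived macrophages, differed by 0.45 (SE 0.27) and Mpeg1, a pore-forming protein of phagocytes, by 0.26 (SE 0.18). Over the 9 libraries with high Fabp6, 10 of 23 genes had higher and 13 lower means, with a median of -0.015, so the excess of higher means rested on the 3 other libraries. Timd4 then differed by 0.47 (SE 0.22) and Mpeg1 by 0.16 (SE 0.16). Of 17 lysosome and phagocytosis genes 16 were tested, 7 with higher and 9 with lower means, none past the test and 2 at an unadjusted p under 0.05. Ctsd, a lysosomal protease, differed by -0.24 (SE 0.11) and Npc2, a lysosomal cholesterol carrier, by -0.18 (SE 0.08). Of 8 haem and iron handling genes 7 were tested, 3 with higher and 4 with lower means, none past the test and 1 at an unadjusted p under 0.05. Hp, which encodes haptoglobin, the partner of haemoglobin in uptake by CD163, averaged 159.3 ± 72.1 and 22.3 ± 39.96, a fitted difference of -5.07 (SE 1.07, limma adjusted p = 0.2497). It had no read in P. gingivalis replicates 1, 3 and 5, so this fitted value depends on the pseudocount, and fat cells also make it. Slc11a1, a metal transporter of phagosomes, differed by 0.18 (SE 0.19). In the 9 libraries, 4 lysosome and phagocytosis genes had higher and 12 lower means, and 1 haem and iron gene had a higher and 6 lower means, none past the test. There Ctsd differed by -0.19 (SE 0.12), Npc2 by -0.20 (SE 0.10), Slc11a1 by -0.023 (SE 0.19) and Hp by -4.12 (SE 1.16).

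For each member the other tested genes with the most similar course over the 12 libraries were looked up, by Pearson's r with group means removed. C1qa was most like C1qb (r = 0.97), Itgax was most like Mpeg1 (r = 0.98), with Laptm5, a lysosomal protein of blood cells, and Cd200r1, an inhibitory receptor of myeloid cells, next (both r = 0.95). Flt3 was most like Ppfia4 (r = 0.97), followed by Clec12a, a myeloid lectin receptor (r = 0.92), and the phospholipase Pla2g2d (r = 0.92). Csf1r was most like Neu3 (r = 0.97), Nadk2 (r = 0.96) and the interferon-induced GTPase gene Gbp4 (r = 0.96). Over the 9 libraries with high Fabp6 the values for Neu3, Nadk2 and Gbp4 were 0.80, 0.74 and 0.88.

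Mrc1 was most like Rcn3 (r = 0.97), Igfbp7 (r = 0.96) and the scavenger receptor Colec12 (r = 0.96). Cd163 had Cyr61 and Ctgf, matricellular proteins, at 0.93 and 0.92 among its 3 nearest, and Lyz2 had Emp3 (r = 0.97), the class II gene H2-Ab1 (r = 0.96) and Metrn (r = 0.94). Adgre1 was most like Pilrb1 (r = 0.95), Cx3cr1 like Rab8b (r = 0.97) and Cd68 like Timm9 (r = 0.94). These are the nearest of 15025 genes over libraries that share depth and tissue makeup, and are a description.

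Per kilobase of exon, the PBS levels ordered the genes from Lyz2 at 730.2 ± 163 normalized counts per kilobase and C1qa at 331.6 ± 37.6 to Csf1r at 90.8 ± 17.2. The place of Lyz2 is subject to the handling of reads shared with Lyz1, which is not known. After Csf1r came Itgax (47.6 ± 7.85), Mrc1 (42.03 ± 4.83), Adgre1 (39.3 ± 7.11), Cd68 (37.6 ± 4.89) and Cx3cr1 (34.7 ± 4.12). Neighbours among these 5 lay within their SDs of each other. Cd163 (11.6 ± 3.52) and Flt3 (4.55 ± 1.02) were lowest. After P. gingivalis Adgre1 (46.7 ± 11.9) and Cd68 (39.2 ± 7.11) stood above Mrc1 (38.3 ± 11.5), which thus moved from the second to the fourth of these 5, a change of order within these SDs.

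On GRCm38 (GENCODE M21), the genes lie as follows, all protein coding and each measured as a whole gene without regard to exon or isoform. Flt3 lies on chromosome 5 from 147330741 to 147400489, Itgax on chromosome 7 from 128129547 to 128150657 and Cx3cr1 on chromosome 9 from 119901616 to 120069879. Csf1r lies on chromosome 18 from 61100598 to 61132149, Adgre1 on chromosome 17 from 57358691 to 57483527 and C1qa on chromosome 4 from 136895917 to 136898803. Cd68 lies on chromosome 11 from 69664213 to 69666153, Mrc1 on chromosome 2 from 14229392 to 14332057 and Cd163 on chromosome 6 from 124304656 to 124330527. Lyz2 and Lyz1 lie on chromosome 10 from 117277331 to 117282321 and from 117287797 to 117292868. Exons of Cx3cr1 share positions with the opposite-strand gene Gm33858, which was not analysed here.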

How the data were processed

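Polyadenylated RNA of 12 ileal libraries was analysed. Tools listed in the submitters' processing notes are DESeq2, Cufflinks, HISAT2 and FastQC, and builds are mm10 and GRCm38, without versions or roles. The sources used here do not give the counting method, strand setting or annotation release. The deposited unit is a signal, normalized counts by the name of the table, in which a library's reads are scaled by 1 factor. Within 0.001 reads, 100% of values were whole multiples of 1 step per library, which gave back the reads.

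The 15025 genes whose mean over libraries was 10 or more entered limma 3.58.1 (R 4.3.3, trended variances, log2 of the normalized count plus 1), and two-sided p-values were adjusted over them by Benjamini-Hochberg. The pseudocount makes differences understate changes of weakly expressed genes. Tested on simulated data for this comparison with 15025 genes, limma recovered 85% of the 100 genes made to differ 2-fold. It recovered 100% of the 100 made to differ 4-fold, and made 15 false calls. These shares are not given by expression level, so they do not describe weakly expressed members such as Flt3 and Cd68. Nor do they tell how far variation that many genes share, as in the libraries low in Fabp6, lowers recovery in the real data. edgeR 4.0.16 and DESeq2 1.42.0 were run on the recovered reads as alternatives.

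Members and lists were chosen with earlier results of these data known. Named beside the members were the 2 genes of smallest p in each list and, for each member, up to 3 genes of most similar course. Lyz sequences come from GENCODE M21 transcripts. Alternatives changed the pseudocount, filter, scaling, test, weights, block, libraries and covariates.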

Additional observations from a re-analysis of the deposited data

Results flagged for a closer look

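Among 20 sets of 6 values (10 genes in each treatment group), 2 held a library well apart from the remaining 5, where chance gives about 1 in 20 sets. For Itgax it was PBS replicate 6, at 302.3, while the remaining PBS values were 198.2 to 231.3. For Cd68 it was P. gingivalis replicate 1, at 65.5, while the remaining values were 39.8 to 49.3. Both are among the 3 libraries low in Fabp6.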

How the results depend on the processing

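No member was called in any of 29 alternatives, and in no rescaling or omission of libraries did the groups stop overlapping for a member. Over all genes limma called 0. It called 1 with a pseudocount of 5, 20 with sample weights, 1 without the 3 libraries low in Fabp6, 2 with the smooth muscle mean and 9 with the epithelial mean (added with the values known, like the list counts without those 3) as covariate, and 0 to 53 with single libraries left out, the most without P. gingivalis replicate 6. DESeq2 called 33 and edgeR 0. At an unadjusted p under 0.05 stood 703 genes with DESeq2, 542 with edgeR and 560 with limma. The tools gave a p to different numbers of genes, and the shares were 2.58%, 3.64% and 3.73%. Libraries with the same title number did not deviate together (6 correlations from -0.54 to 0.08), and the number says nothing of a shared source. With it as a replicate block, limma called 0 genes and 0 members, with 462 genes at an unadjusted p under 0.05. It changed no member's call.

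Flt3, Itgax, Cx3cr1, Adgre1 and C1qa kept positive differences in every alternative that tested them, the smallest being 0.034 for Cx3cr1 without P. gingivalis replicate 6. That of Flt3 ran from 0.46 to 0.68, with 0.58 by edgeR (adjusted p = 0.993) and 0.58 by DESeq2 (adjusted p = 0.9996). The sign of Lyz2 turned with sample weights (0.0029), without the 3 libraries low in Fabp6 (0.12), and with Fabp6 (0.0036), smooth muscle (0.28) or fat cell (0.40) covariates, and its range with single libraries left out was -0.17 to 0.068. That of Cd68 turned without the 3 libraries (-0.019) and with Fabp6 (-0.0030) or fat cell (-0.083) covariates, with -0.034 to 0.11 over single omissions. Csf1r turned without the 3 libraries (-0.0049). Mrc1 turned with smooth muscle (0.16) and fat cell (0.28) covariates, as did Cd163 (0.16 and 0.49). The cause was not tested. Depth limits Flt3, Cd68 and Cd163 most. A filter at a mean of 50 left Flt3 and Cd68 untested.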
